A study of Saccharomyces cerevisiae with 6 samples.

Results

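Genes of DNA replication were followed in budding yeast treated with paraquat, a redox-cycling herbicide that makes superoxide inside cells. The set holds 44 genes whose products recognise replication origins, load and start the replicative helicase, or synthesise and join DNA at the fork. The rule that sets them is a list of names and uses no measured value, but the list was drawn up with earlier results of these data known. The platform annotation named a probe for 41 of them, and all 41 had a value on each of the 3 arrays, among 5693 features tested in all, 5218 of them with a gene name. MCM3, MCM7 and POL2 had no named probe and are not analysed here.

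Cultures of strain S288C, a laboratory strain, grew exponentially in YPD, a rich glucose medium, at 25 °C. The treated cultures received 35 ppm paraquat for 2 h, and the untreated cultures were grown on for 2 h without it. On each of 3 2-colour arrays, described as independent biological samples, Cy5-labelled cDNA of a treated culture was hybridised together with Cy3-labelled cDNA of an untreated one. Each array was read with a high and a low laser power, and both scans were averaged into 1 value per array. A value is a log ratio, read here as the base 2 logarithm of paraquat over untreated, so that 1 means 2-fold higher after paraquat and -1 means 2-fold lower. That base and that direction are likely from the order of the channels and the repository's convention, but no source states them. With the opposite direction every sign given here would turn. Dye and treatment cannot be told apart, since paraquat samples carried Cy5 on all arrays. The ratios hold no level per gene, so genes cannot be ranked by abundance. In whole cultures, fewer cells in a cell cycle stage and less of a transcript per cell cannot be told apart.

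Eukaryotic replication is built in steps. The origin recognition complex (ORC) marks origins, and in late mitosis and G1 the loader Cdc6 helps it place the ring-shaped MCM helicase on DNA. The kinase Cdc7 with its activator Dbf4, together with Cdc45, the GINS complex and further factors, turns that helicase on in S phase, after which DNA polymerases alpha, delta and epsilon copy the strands with a sliding clamp and a single-strand binding protein. In budding yeast the MCM and CDC6 transcripts are known to peak around the change from mitosis to G1, and many polymerase, primase, clamp and RPA transcripts at the change from G1 to S, under the regulator MBF.

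No replication gene passed the threshold. Limma fits the mean ratio of every feature against 0. It draws each feature's variance toward a value shared across features, which is called variance moderation. It called 0 of 41 higher and 0 of 41 lower at a Benjamini-Hochberg adjusted p under 0.05. The background was 0.0351% of features called higher and 0.00% called lower. Before adjustment, a p under 0.05 was reached by 0 replication genes that were higher and by 1 that was lower, MCM5, where 5.48% of all features were higher and 5.29% lower. Without variance moderation 1 of 41 was higher at that unadjusted level, ORC2 (2.44%, against 3.44% of all features), 2 were lower, SLD5 and RFC3 (4.88%, against 3.09%), and 0 passed the adjusted one. The median of the 41 gene means was -0.093, against -0.0065 over all features. On replicates 1, 2 and 3 the median over replication genes was -0.14, 0.026 and -0.028. The sign of the median thus turned between arrays, and without replicate 3 it was 0.025.

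Most of the 95% intervals from limma lay within a 2-fold change in either direction. The 95% confidence interval of the mean lay wholly between -1 and 1 for 40 of the 41 genes (97.6%), and for 95.7% of all features. MCM5 was the 1 gene whose interval reached past -1, and also the 1 whose interval left out 0. Of the 41 means, 30 lay between -0.25 and 0.25 (73.2%, against 67.4% of all features). The median standard error of a gene mean was 0.20. These intervals and errors use the moderated variance, with 2 residual and 19.1 prior degrees of freedom. They thus rest largely on the spread of other features, not on the 3 values of a gene. MCM6 counts as within 2-fold, at -0.93 to 0.13, though its SD was 0.93 and 1 array lay at -1.47. Intervals without moderation are not given here.

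The sign of single genes often differed between arrays. Of the 41 genes, 6 were above 0 on all 3 arrays (14.6%, against a background of 16.0%), and 5 were below 0 on all 3 (12.2%, also against 16.0%). The 6 were ORC2, ORC4, POL12, PRI1, POL3 and RFC2, and the 5 were MCM5, MCM2, SLD5, POL1 and RFC3. The other 30 had mixed signs. Across the 41 genes, which are not independent replicates, values on replicates 1 and 2 correlated with Pearson r = 0.062, on replicates 1 and 3 with 0.246 and on replicates 2 and 3 with -0.154. Over all 5693 features these were 0.164, 0.217 and 0.0254.

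**Figure D1:**
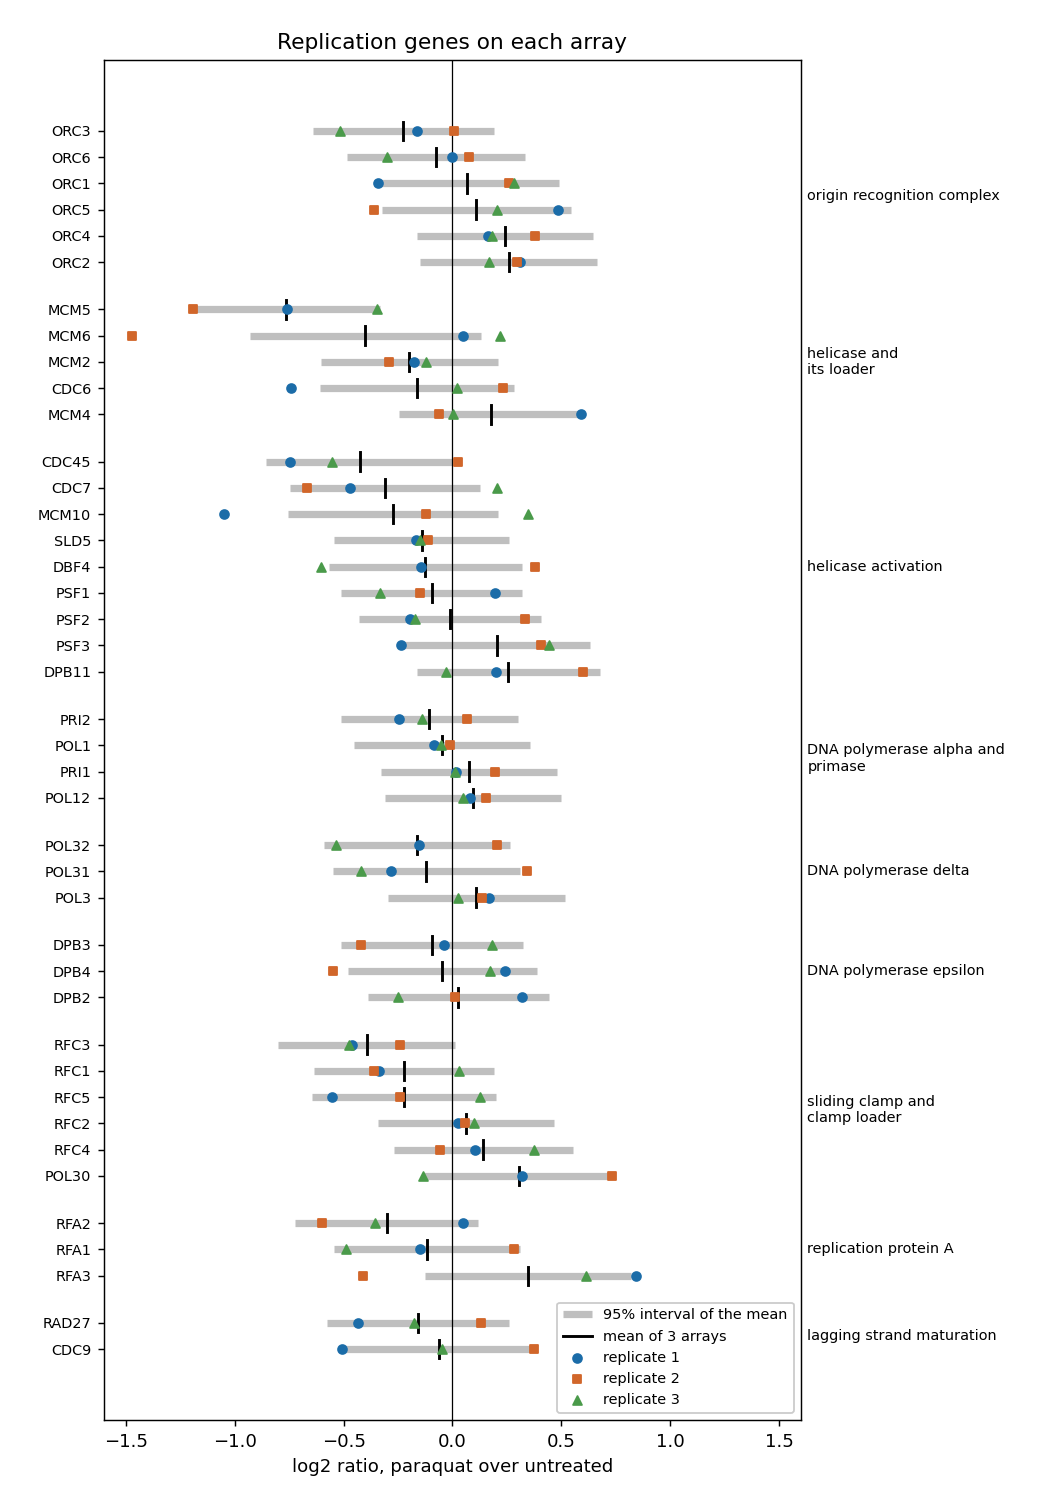
Log2 ratio of paraquat over untreated (x axis) for the 41 measured replication genes (y axis), grouped by role; blue circles, orange squares and green triangles are replicates 1, 2 and 3, black ticks the mean of 3 arrays and grey bars its 95% confidence interval from limma. The bars of 40 genes include 0, MCM5 lies left of 0 on every array, and MCM6 has 1 array at -1.47 with the others above 0.

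MCM5 was the lowest of the 41. MCM5 (YLR274W, also CDC46) encodes a subunit of the MCM helicase ring. Its log2 ratios on replicates 1, 2 and 3 were -0.76, -1.19 and -0.35. All 3 arrays lay below 0, with replicate 2 the lowest and replicate 3 nearest to 0. The mean was -0.77 ± 0.42 (SD, n = 3 arrays), or 0.588-fold, with a 95% interval of -1.20 to -0.33 and a limma adjusted p = 0.171. By that mean it ranked 24th lowest of 5693 features. Both scans of every array gave a value. The low power scan read -1.15, -1.53 and -0.38, and the high power scan -0.37, -0.85 and -0.32. On replicates 1 and 2 the low power scan was thus well below the high power one, by differences of -0.78 and -0.68, while on replicate 3 the scans were close.

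The call on MCM5 depended on which scans and features were used. It passed on low power scans alone (mean -1.02, limma adjusted p = 0.0186), where 1978 features had a value on all arrays and 0.506% of them were called lower. It also passed among the 1794 features with a value in all 6 scans (limma adjusted p = 0.0316), of which 0.502% were called lower; there its ratios were the same, while the variance shared across features and the number adjusted over were not. On high power scans alone it did not pass (mean -0.51, limma adjusted p = 0.419). Over 12 alternatives its limma adjusted p ranged from 0.0186 to 0.826 and its mean from -1.02 to -0.51. Its unadjusted p was under 0.05 in 11 of the 12, the exception being the fit without variance moderation.

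The other helicase subunits did not share one direction. MCM6 (YGL201C) had log2 ratios of 0.05, -1.47 and 0.22 on replicates 1, 2 and 3. Replicate 2 alone was low, where MCM6 ranked 18th lowest of 5693 features and both scans were low, at -1.41 and -1.53. Its mean of -0.40 ± 0.93 (SD, n = 3 arrays; limma adjusted p = 0.611) became 0.13 without that array. MCM2 (YBL023C) lay below 0 on each array, at -0.18, -0.29 and -0.12, with a mean of -0.20 ± 0.085 (SD, n = 3 arrays; limma adjusted p = 0.77). On replicate 3 its scans had opposite signs, 0.051 at high and -0.30 at low power. MCM4 (YPR019W, also CDC54) was at 0.59, -0.062 and 0.0031, with replicate 1 far above the other arrays. CDC6, the helicase loader, was at -0.74, 0.23 and 0.022, with replicate 1 far below them. These 5 genes, which are also the measured genes of the set that peak from mitosis to G1, had a median of -0.20, and of -0.18, -0.29 and 0.0031 on replicates 1, 2 and 3. MCM2, MCM4, MCM5 and MCM6 are related in sequence, and probe sequences were not used here.

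**Figure D2:**
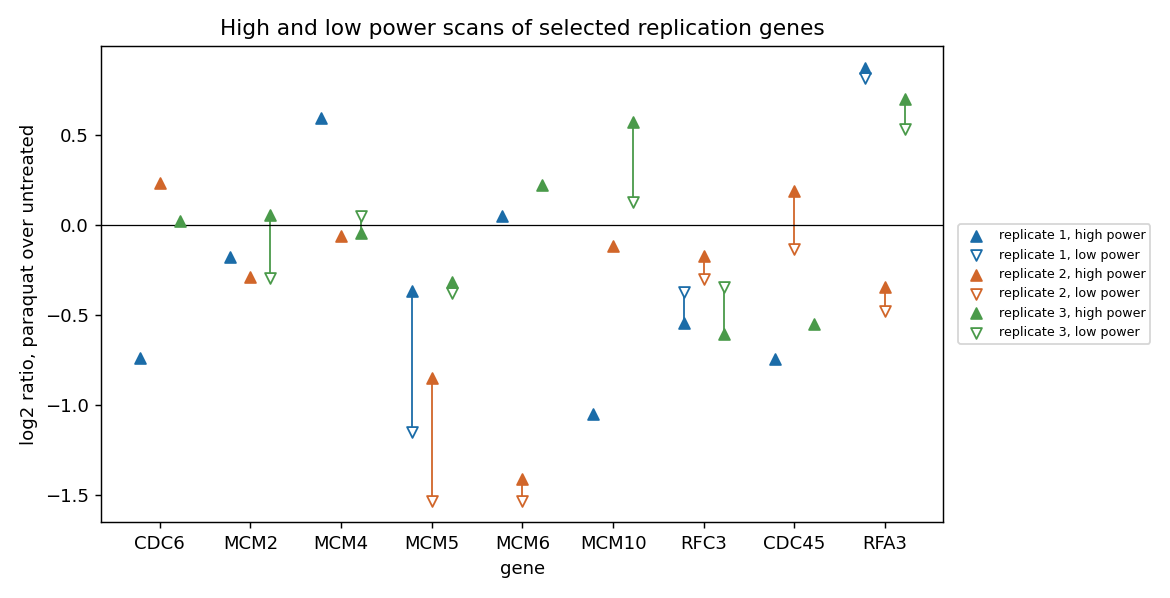
Log2 ratio of paraquat over untreated (y axis) in each scan of 9 replication genes (x axis); filled upward triangles are high power scans, open downward triangles low power scans, colours mark replicates 1 to 3, and a line joins the 2 scans of an array where both gave a value. MCM5 is below 0 in all 6 scans, with its largest gaps between scans on replicates 1 and 2, while both scans of MCM6 are low on replicate 2.

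Factors that turn the helicase on were mostly below 0 in their means, none past the threshold. Of 9 genes, 7 had a mean below 0, as did 26 of all 41 replication genes and 2890 of the 5693 features. The median over the 9 was -0.12, and 1 of them, SLD5, was below 0 on all arrays. Without replicate 3 that median was 0.025. CDC45 (YLR103C), whose product travels with the helicase at the fork, had the lowest mean of these, with log2 ratios of -0.75, 0.026 and -0.55 on replicates 1, 2 and 3. Replicates 1 and 3 were low and replicate 2 was near 0, where its scans had opposite signs. The mean was -0.42 ± 0.40 (SD, n = 3 arrays), with a 95% interval of -0.85 to 0.0052 and a limma adjusted p = 0.465, and it was -0.65 without replicate 2 and -0.26 without replicate 1.

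The kinase subunits and MCM10 were spread widely over the arrays. CDC7, the catalytic subunit, was at -0.47, -0.67 and 0.21 on replicates 1, 2 and 3, and DBF4, its activator, at -0.14, 0.38 and -0.61. CDC7 was thus low on replicates 1 and 2, and DBF4 on replicate 3. MCM10 (YIL150C), which helps the helicase leave its inactive state, had -1.05, -0.12 and 0.35 on the same arrays, the lowest value of any of the 41 genes on replicate 1. Its mean of -0.27 ± 0.71 (SD, n = 3 arrays) was 0.11 without replicate 1, and -0.0079 once a trend along the probe numbers, used in place of spot positions, was subtracted.

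The GINS genes had means between -0.14 and 0.20. SLD5 was the steadiest of the 41 genes, with log2 ratios of -0.17, -0.11 and -0.15 and a mean of -0.14 ± 0.028 (SD, n = 3 arrays; limma adjusted p = 0.853). PSF1, PSF2 and PSF3, which encode the other subunits, had means of -0.095, -0.011 and 0.20, all with mixed signs. PSF1 was at 0.20, -0.15 and -0.33 and PSF2 at -0.20, 0.33 and -0.17 on replicates 1, 2 and 3, so that replicate 1 was the highest array for PSF1 and replicate 2 for PSF2. PSF3 was below 0 on replicate 1 (-0.23) and above it on replicates 2 and 3 (0.41 and 0.44). DPB11, which bridges phosphorylated initiation factors, had the highest mean of this group, 0.26 ± 0.32 (SD, n = 3 arrays), from 0.20, 0.60 and -0.028. Replicate 3 was near 0 and the other arrays above it, and the limma adjusted p = 0.709.

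Origin recognition genes had a median slightly above 0 on each array. The 6 ORC genes showed medians of 0.079, 0.17 and 0.18 (replicates 1, 2 and 3), and the median of their means was 0.088, or 0.049 without replicate 3 and 0.0025 after subtraction of the probe number trend. ORC2 (YBR060C) had the highest mean, 0.26 ± 0.079 (SD, n = 3 arrays; limma adjusted p = 0.685), from 0.31, 0.30 and 0.17, although on replicate 3 its scans read -0.12 at high and 0.45 at low power. ORC4 (YPR162C) followed at 0.24 ± 0.12 (SD, n = 3 arrays; limma adjusted p = 0.715), from 0.16, 0.38 and 0.18, and was 0.09 with the trend removed. These ORC genes were above 0 on every array and the other 4 had mixed signs. ORC3 was lowest, with a mean of -0.23 and values of -0.16, 0.0053 and -0.52. ORC1, which encodes an ATPase subunit, was at -0.34, 0.26 and 0.28, ORC5 at 0.49, -0.36 and 0.21 and ORC6 at -0.0029, 0.076 and -0.30.

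DNA polymerase alpha and primase, which lay down the primers of each new strand, stayed close to 0. All 4 genes had means between -0.11 and 0.095, with a median of 0.014, or -0.026 without replicate 2. POL1 (YNL102W), the catalytic subunit of polymerase alpha, was at -0.084, -0.0096 and -0.052 on replicates 1, 2 and 3, a mean of -0.048 ± 0.037 (SD, n = 3 arrays) with a 95% interval of -0.45 to 0.36. Its sign turned, to 0.078, after subtraction of the probe number trend. POL12, the regulatory subunit, was at 0.08, 0.15 and 0.05, above 0 on every array and with a 95% interval of -0.31 to 0.50. PRI1, the catalytic primase subunit, was at 0.018, 0.20 and 0.011, or -0.04 in the mean with the trend removed, and PRI2, the large primase subunit, at -0.25, 0.067 and -0.14. The intervals of these genes left out a change of 2-fold in either direction, as did those of 95.7% of all features.

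The polymerases that extend the strands also lay near 0 in their means. Of polymerase delta, POL3 (YDL102W), the catalytic subunit, was at 0.17, 0.14 and 0.024 on replicates 1, 2 and 3, with a mean of 0.11 ± 0.076 (SD, n = 3 arrays; limma adjusted p = 0.89). The accessory subunits POL31 and POL32 were at -0.28, 0.34 and -0.42 and at -0.16, 0.21 and -0.53. Both accessory subunits were above 0 on replicate 2 and below it on replicates 1 and 3, while POL3 was above 0 throughout. The polymerase epsilon subunits DPB2, DPB3 and DPB4 had means of 0.028, -0.093 and -0.046. DPB2, an essential subunit, was at 0.32, 0.013 and -0.25, with the scans of replicate 3 of opposite sign (0.058 at high and -0.56 at low power). DPB3 and DPB4, which encode the small histone-fold subunits, were both lowest on replicate 2, at -0.42 and -0.55, and both above 0 on replicate 3, at 0.18 and 0.17. By array, the median over the delta genes was -0.16, 0.21 and -0.42, and over the epsilon genes 0.24, -0.42 and 0.17. The medians of the delta and epsilon groups thus had opposite signs on each array.

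In the clamp and clamp loader group, RFC3 was the lowest and POL30 the highest. RFC3 (YNL290W), a subunit of the loader that places the clamp on DNA, had log2 ratios of -0.46, -0.24 and -0.48 on replicates 1, 2 and 3. It was below 0 in all 6 scans, as was MCM5, among the 11 of the 41 genes with a value in every scan. The share of all features below 0 in every scan was not counted. The mean of RFC3 stayed between -0.47 and -0.34 over 12 alternatives. The mean was -0.39 ± 0.13 (SD, n = 3 arrays), with a 95% interval of -0.80 to 0.014 and a limma adjusted p = 0.482, so that it did not pass. RFC1 and RFC5 were below 0 on replicates 1 and 2 and above it on replicate 3, with means of -0.22 and -0.22. RFC2 was above 0 on each array at 0.027, 0.06 and 0.10, and RFC4 was at 0.10, -0.055 and 0.38, highest on replicate 3. RFC1, the large subunit, was at -0.34, -0.36 and 0.029. Over the group of 6 the median was -0.08, with 3 means above 0 and 3 below. By array it was -0.15, -0.15 and 0.064, and it turned to 0.011 without replicate 1 and was -0.16 without replicate 3.

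POL30 (YBR088C) encodes PCNA, the sliding clamp that holds polymerases on DNA. Its log2 ratios were 0.32, 0.73 and -0.14, high on replicate 2 and below 0 on replicate 3. The mean was 0.31 ± 0.44 (SD, n = 3 arrays; limma adjusted p = 0.644), but -0.019 after subtraction of the probe number trend and 0.091 without replicate 2. RFC5 and POL30 are neighbours in the genome, and their values did not run in parallel: RFC5 was at -0.55, -0.24 and 0.13 on the same arrays, where POL30 had the opposite sign on each.

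Replication protein A, which coats single-stranded DNA, held the highest gene mean of the set. RFA3 (YJL173C), its smallest subunit, had log2 ratios of 0.84, -0.41 and 0.61 on replicates 1, 2 and 3. Replicates 1 and 3 were high and replicate 2 low, and on each array both scans had the same sign. Its mean of 0.35 ± 0.67 (SD, n = 3 arrays; limma adjusted p = 0.622) was 0.73 without replicate 2 and 0.10 without replicate 1. RFA2 had the lowest mean of the complex, -0.30, from 0.05, -0.60 and -0.36, and RFA1, the large subunit, was at -0.15, 0.28 and -0.49. The subunits of this complex thus differed in sign on every array.

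The lagging strand genes shared their sign on each array, but not 1 sign across arrays. CDC9, the DNA ligase gene, was at -0.51, 0.37 and -0.049 on replicates 1, 2 and 3. RAD27, the flap endonuclease gene, was at -0.43, 0.13 and -0.18. Both were below 0 on replicates 1 and 3 and above it on replicate 2, with means of -0.06 and -0.16.

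**Figure D3:**
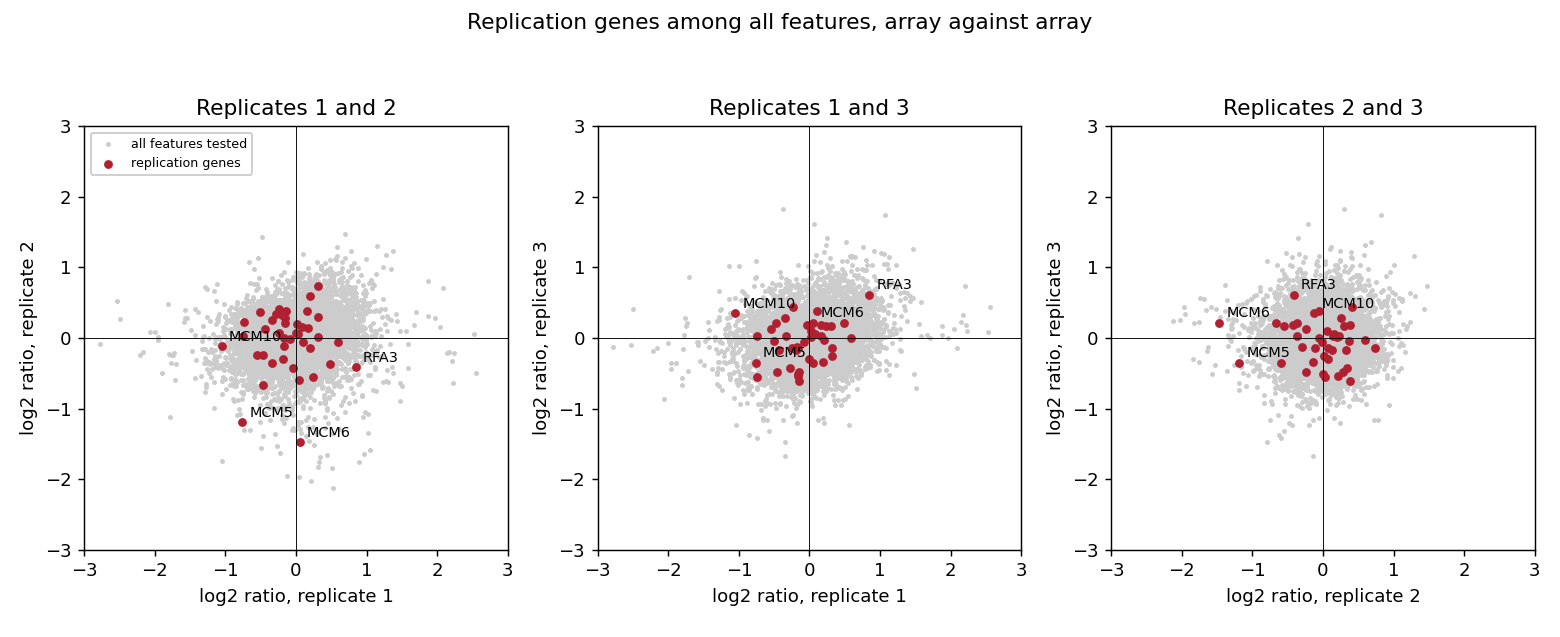
Log2 ratio of paraquat over untreated on 1 array (x axis) against another (y axis), for replicates 1 and 2, 1 and 3, and 2 and 3; grey points are the 5693 features tested and red points the 41 replication genes. The red points lie inside the grey cloud with no shared direction, and MCM5, MCM6, MCM10 and RFA3 are named as genes far from 0 on single arrays.

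Scans at low power gave fewer values for replication genes than for features at large. On replicates 1, 2 and 3 the low power scan had a value for 12, 16 and 22 of the 41 genes, or 29.3%, 39.0% and 53.7%, where it had one for 42.3%, 48.0% and 69.5% of all tested features. All 6 scans gave a value for 11 of the 41 genes (26.8%, against 31.5% of all features), and 17 had values from high power scans alone (41.5%, against 27.5%). Where both scans existed, their median gap in size was 0.256, 0.255 and 0.200 for replication genes on replicates 1, 2 and 3, and 0.201, 0.143 and 0.135 for all features. The 17 genes with high power values alone, among them ORC1, CDC6, CDC7, SLD5, POL1 and CDC9, have no rescan behind their ratio.

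Cell cycle markers were set beside the replication genes, since their transcripts follow the cycle. On replicate 3 all 12 measured markers of the change from mitosis to G1 were below 0, with a median of -0.60, and so were all 8 markers of G2 to mitosis, with a median of -0.40. On that array the replication genes were split, with 21 below 0 and 20 above, and a median of -0.028. On replicates 1 and 2 the mitosis to G1 markers had medians of 0.10 and 0.26. The 5 measured replication genes known to peak at that same stage had -0.18 and -0.29 there, and 0.0031 on replicate 3. Their medians were thus not ordered across arrays as those of the markers were, and the part of cell cycle stage in any of these values was not tested.

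The replication genes listed here as peaking from G1 to S had medians of the same sign as their stage's markers on each array. The 11 measured genes of this kind, POL1, POL12, POL30, PRI1, PRI2, RFA1, RFA2, CDC9, RAD27, CDC45 and DPB2, showed medians of -0.084, 0.13 and -0.14 (replicates 1, 2 and 3). The 11 measured G1 to S markers had -0.074, 0.22 and -0.30. Of these markers 3 had a mean above 0 and 8 below, from -0.31 for TOS4 to 0.32 for the cyclin gene CLN2. Of the 11 genes of each list, 5 were above 0 and 6 below on replicate 1, 9 above and 2 below on replicate 2, and 2 above and 9 below on replicate 3. The genes of both lists were thus nearly evenly split on replicate 1, where their medians lay just below 0. The match in sign holds for the list as drawn up. RFA1 and RFA2 are on it, but RFA3 of the same complex is not. RFA3, at 0.84, -0.41 and 0.61, was opposite in sign to the list median on each array. POL3, also left out, was at 0.17, 0.14 and 0.024, opposite on replicates 1 and 3. Neither list had a gene past the threshold. The signs of the list medians on replicates 2 and 3 were not particular to this stage. Medians there were 0.085 and -0.40 for the G2 to mitosis markers, and 0.26 and -0.60 for the mitosis to G1 markers. On replicate 1 those markers had 0.036 and 0.10. The part of cell cycle stage was not tested here either. Histone transcripts, which mark S phase itself, had medians of 0.21, -0.0064 and 0.15 over 8 genes. The highest means were those of HTB1 at 0.49 ± 0.42 and HTA1 at 0.48 ± 0.42 (SD, n = 3 arrays; limma adjusted p = 0.404 and 0.409). HHT2 had the lowest, -0.15 ± 0.37 (SD, n = 3 arrays), and 7 of the 8 means were above 0. At an unadjusted limma p under 0.05, 2 of the 8 were higher, HTB1 and HTA1, where 5.48% of all features were. The median of the histone means was 0.17, or 0.34 without replicate 2. High power scans gave a value on all arrays for 3 of the 8 genes.

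The regulators of entry into S phase did not pass either and overlap with the marker lists. The cyclin genes CLN1, CLN2, CLB5 and CLB6 are also among the G1 to S markers, and SIC1 is among those of mitosis to G1. Among 12 measured, 0 were called, and 1 was lower at an unadjusted p under 0.05, the gene of the S phase kinase inhibitor SIC1 at -0.47 ± 0.52 (SD, n = 3 arrays; limma adjusted p = 0.441). SIC1 was low on replicates 1 and 3, at -0.56 and -0.94, and near 0 on replicate 2. MBP1 and SWI6, the subunits of MBF, had means of -0.016 and -0.27. CDC28, the cyclin-dependent kinase gene, was above 0 on each array, at 0.26, 0.30 and 0.38. CLN2 had the highest mean, 0.32 ± 0.68 (SD, n = 3 arrays), from 0.53, 0.86 and -0.44.

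A further list of replication factors outside the 44 genes had a median of -0.0029, which was not steady. It was 0.19, -0.028 and -0.034 on replicates 1, 2 and 3, -0.091 without replicate 1 and 0.11 without replicate 3. CTF4 of this list is also a G1 to S marker. Of its 20 genes 18 were measured, 8 with a mean above 0 and 10 below, and limma called 0 at the adjusted threshold and 0 at an unadjusted p under 0.05. NOC3, a factor of ribosome assembly that also takes part in origin licensing, had the lowest mean, -0.41 ± 0.45, and CTF8, of an alternative clamp loader, the highest, 0.29 ± 0.37 (SD, n = 3 arrays each). CTF18 was above 0 on every array at 0.20, 0.15 and 0.15, and the topoisomerase gene TOP2 below 0 on every array at -0.29, -0.20 and -0.052. These were the 2 genes of that list with 1 sign on all arrays.

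**Figure D4:**
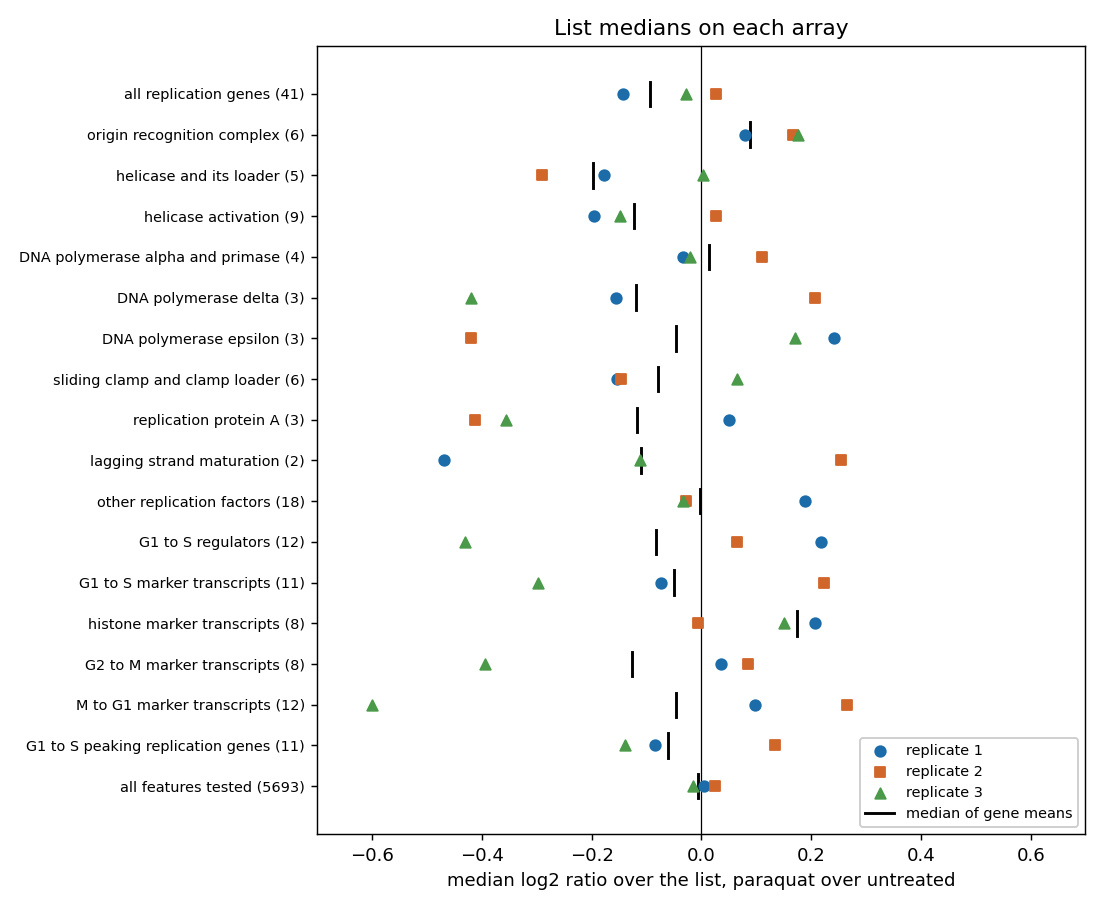
Median log2 ratio of paraquat over untreated (x axis) for each gene list (y axis, number of measured genes in brackets); blue circles, orange squares and green triangles are the medians on replicates 1, 2 and 3, and black ticks the median of the gene means. The median of all replication genes stays between -0.14 and 0.026 on every array, while mitosis to G1 markers reach -0.60 on replicate 3.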

How the data were processed

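The deposited values were log ratios of the 2 channels of each scan, taken here as log2. Per the labels' descriptions, the authors normalized them by LOWESS, using spots of flag 0. Per the labels they also merged both scans in GeneSpring into an averaged column, not used here. The sources used here name no image software, background correction, log base or direction of the ratio. The platform annotation gave 1 gene symbol for 5513 of 6912 probes, several for 0 and none for 1399, and 5508 of these symbols were brought up to date with RefSeq names (assembly R64). Probes with identical values in all scans (to 9 decimals, 78 sets) were counted as 1 feature, which joined both RFC1 probes, and 761 probes without a value were left out.

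High and low power scans were averaged per array. In R 4.3.3, limma 3.58.1 (lmFit and eBayes, two-sided, 2 residual and 19.1 prior degrees of freedom) tested the mean of 3 arrays against 0 for the 5693 features with a value on all of them, with Benjamini-Hochberg adjustment over all features. The script was tested on simulated data. A high power scan had a value for 5730 to 6006 probes and a low power scan for 2496 to 4076, with medians between -0.031 and 0.022. Precision is limited by the number of arrays.

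The replication genes and all other lists were chosen with earlier results of these data known. By rule, genes given per array were those past the threshold and the 6 highest and 6 lowest means with 1 sign on all arrays. The rule also named the highest and lowest mean of each role group and of each other list. Not all of these are given for the G2 to mitosis and mitosis to G1 markers. Further genes were picked after their values were seen. Alternatives were each scan alone, values in all 6 scans, centring, scaling, a trend along the probe numbers (additive in their digit groups) subtracted, robust and unmoderated variance, values on at least 2 arrays, and leaving out each replicate. A planned search for promoter motifs was not run, as no promoter sequence was used here.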

Additional observations from a re-analysis of the deposited data

How the results depend on the processing

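Over 12 alternatives the count of replication genes called higher stayed at 0, and the count called lower was 0 except for 1 (MCM5) on low power scans alone and 1 (MCM5) among features with a value in all 6 scans, where 11 of the 41 genes could be tested and the shared variance and the number of features adjusted over differed. The median of the gene means was -0.093 and lay between -0.13 and 0.025 when 1 replicate was left out, turning sign without replicate 3; its other values lay between -0.17 on low power scans alone and -0.044 after subtraction of the probe number trend. On replicates 1, 2 and 3 this trend took up 14.5%, 19.0% and 10.1% of the variance. Of the 11 genes with 1 sign on all arrays, POL1 (0.078) and PRI1 (-0.040) changed sign when it was subtracted, and the cause was not tested. No other of the 11 changed sign under any alternative that gave it a value. As the 11 were chosen for 1 sign on all arrays, only single scans, centring, scaling and the trend could turn it. Leaving out a replicate, or changing the variance or the features tested, could not. Each ratio already sets a treated against an untreated culture on 1 array, so the test of the mean against 0 was paired by array. There is a single group, and no further pairing was used. Over all features 2 were called, against 0 to 69 over the alternatives. The 69 came when replicate 2 was dropped, 8 were called when replicate 3 was, and 0 when replicate 1 was. At an unadjusted p under 0.05 there was 1 replication gene, against 1 to 5 over the alternatives, with 5 without replicate 3 and 3 without replicate 2. The share of all features at that level was counted only for the main fit and the fit without variance moderation. The counts without a replicate thus have no background beside them. Genes without a low power value rest on 1 scan per array.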
